A study of Mus musculus with 3 samples.

Results

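The let-7a, let-7b, let-7c, let-7d and let-7f miRNAs were followed in small RNA libraries of HL-1 cells, an immortalised mouse heart muscle line that beats in culture. They come from 8 hairpin genes (Mirlet7a-1, Mirlet7a-2, Mirlet7b, Mirlet7c-1, Mirlet7c-2, Mirlet7d, Mirlet7f-1 and Mirlet7f-2) of the 1131 mouse hairpins searched. A read belonged to them if its insert of 18 to 25 nt matched one of these hairpins exactly, or with 1 to 2 added bases at the 3′ end that the hairpin does not hold (untemplated bases). The 8 hairpins give 5 different 5p forms and 7 different 3p sequences, so 12 member arms in all, because let-7a-5p, let-7c-5p and let-7f-5p each have a pair of loci and let-7a-1-3p equals let-7c-2-3p.

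All cells had been transfected with siRNA (9 µl of a 20 µM stock, with a lipid reagent) and were harvested after 48 h. The titles name an unspecific siRNA (siNon) and siRNAs against Srf (siSrf1 and siSrf2), a gene that encodes serum response factor, which switches on muscle genes. The siNon library was not analysed here. The libraries used are called by their titles, and with 1 library in each group there is no replicate check and no p-value. The siRNA entry of the same samples goes against the titles: it reads Srf si2 for the library labelled siSrf1 and siNon for the library labelled siSrf2.

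let-7 miRNAs are among the most conserved in animals and become abundant as cells differentiate. Each is cut from a hairpin precursor by Drosha and Dicer. One strand, here the 5p arm, is kept in an Argonaute protein and pairs with mRNAs mainly through its seed, bases 2 to 8, while the other arm is mostly lost. The RNA-binding protein LIN28 blocks let-7 processing in immature cells. In heart muscle, let-7 miRNAs are known for a rise during maturation.

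The 5p forms carry the finding and are shown 5′ to 3′ with the seed in capitals, from RefSeq (table of build GRCm38.p6):
let-7a-5p: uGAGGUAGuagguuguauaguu
let-7b-5p: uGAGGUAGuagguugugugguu
let-7c-5p: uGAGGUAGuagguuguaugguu
let-7d-5p: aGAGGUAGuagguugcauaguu
let-7f-5p: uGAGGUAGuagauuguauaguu

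All 5 share the seed GAGGUAG, which let-7e, let-7g, let-7i and miR-98 hold as well. Counted from 1 at the 5′ end and written from let-7a-5p, let-7f-5p differs by G12A, let-7c-5p by A19G, let-7b-5p by A17G and A19G, and let-7d-5p by U1A and U16C. let-7a-5p and let-7f-5p, and let-7a-5p and let-7c-5p, are thus 1 base apart.

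The 3p arms are shown because they tell most of the loci apart, again with bases 2 to 8 in capitals:
let-7a-1-3p and let-7c-2-3p: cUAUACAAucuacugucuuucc
let-7a-2-3p: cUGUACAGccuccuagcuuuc
let-7b-3p: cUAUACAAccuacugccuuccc
let-7c-1-3p: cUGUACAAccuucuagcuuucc
let-7d-3p: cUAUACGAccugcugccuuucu
let-7f-1-3p: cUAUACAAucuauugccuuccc
let-7f-2-3p: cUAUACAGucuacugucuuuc

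UAUACAA is shared by the 3p arms of let-7a-1, let-7b, let-7c-2 and let-7f-1, while those of let-7a-2, let-7c-1, let-7d and let-7f-2 each have bases 2 to 8 of their own.

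Each of the 8 hairpins matched the NCBIM37 genome at 1 place. Mirlet7a-1 (chr13:48633548-48633641), Mirlet7f-1 (chr13:48633198-48633286) and Mirlet7d (chr13:48631381-48631483) lie together on the minus strand, with 261 bp between let-7a-1 and let-7f-1 and 1714 bp between let-7f-1 and let-7d, outside annotated genes other than their own. Mirlet7c-2 (chr15:85537033-85537127) and Mirlet7b (chr15:85537749-85537833) lie 621 bp apart on the plus strand, also between genes, with Ppara as the nearest protein-coding gene. Mirlet7a-2 (chr9:41344799-41344894, plus strand) lies within the long noncoding RNA gene D230004N17Rik on the same strand, outside its exons. Mirlet7c-1 (chr16:77599902-77599995, plus strand) lies beside Mir99a and Mir125b-2 and opposite Gm11146. Mirlet7f-2 (chrX:148346889-148346971, plus strand) is in an intron of Huwe1, beside Mir98.

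The libraries held 14911499 (siSrf1) and 14518157 (siSrf2) reads, and 7748874 and 7013026 inserts of 18 to 25 nt, of which 68.0% and 65.4% fell on miRNA arms. miR-1a-3p, the leading miRNA of heart and skeletal muscle, took 62.8% and 51.7% of the 5270416 and 4584161 miRNA reads. Of the other heart muscle miRNAs, miR-499-5p had 73248 and 63334 reads, miR-133a-3p 6168 and 11118, miR-208b-3p 820 and 853, and miR-208a-3p 66 and 65. Markers of other cell types ran from 0 reads in both libraries for miR-124-3p (neuron) and miR-205-5p (epithelium) to 36902 and 40833 for miR-143-3p (smooth muscle and fibroblast), with miR-145a-5p of the same type at 715 and 2859. miR-206-3p (skeletal muscle) had 23 and 15 reads, miR-126a-3p (endothelium) 1573 and 1233, the blood markers miR-142a-3p, miR-223-3p and miR-451a 6 and 5, 154 and 138, and 89 and 82, and miR-200c-3p (epithelium) 2 and 4. miR-122-5p (liver) had 37 and 60 reads. Small RNA reads do not measure the Srf mRNA, but inserts of 20 to 24 nt that match it can come from a transfected siRNA. There were 261 (exact Poisson interval 230 to 295) in the library labelled siSrf2, all at transcript positions 1878 to 1901, against its entry siNon. In the other library there were 24, 13 of them at that site and 11 at positions 2111 to 2131.

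The 5 let-7 5p forms made up 1025278 reads in the library labelled siSrf1 and 1228477 in the library labelled siSrf2, which was 19.5% and 26.8% of all miRNA reads. With miR-1a-3p left out of the total, their share was 52.2% and 55.5%. The log2 ratio, given throughout as siSrf1 minus siSrf2 after scaling to the total of miRNA reads, was -0.46 for the sum (exact binomial 95% interval -0.47 to -0.46), a 1.38-fold higher level in the library labelled siSrf2. The difference was gone, at 0.02, with TMM factors, which scale to the bulk of the miRNAs. Intervals here cover counting error only. In a culture, fewer cells with a miRNA and less of it per cell cannot be told apart.

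let-7f-5p had 405253 reads in the library labelled siSrf1 and 380064 in the library labelled siSrf2, or 7.69% and 8.29% of miRNA reads. let-7c-5p had 230664 and 403148 reads, or 4.38% and 8.79%. let-7a-5p had 208726 and 192368 reads, or 3.96% and 4.2%. The order of the 3 most read forms thus differed: let-7f, let-7c, let-7a in the library labelled siSrf1 and let-7c, let-7f, with let-7b next, in the library labelled siSrf2. let-7b-5p had 152508 and 210094 reads, or 2.89% and 4.58%. let-7d-5p was far lower, with 28127 and 42804 reads, or 0.534% and 0.934%. Among all miRNA arms let-7f and let-7c were ranks 2 and 3 in the library labelled siSrf1 and ranks 3 and 2 in the library labelled siSrf2, let-7a ranks 4 and 5, let-7b ranks 5 and 4, and let-7d ranks 16 and 13. No 2 forms had overlapping counting intervals within a library, but their spread over cultures is not known.

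**Figure D1:**
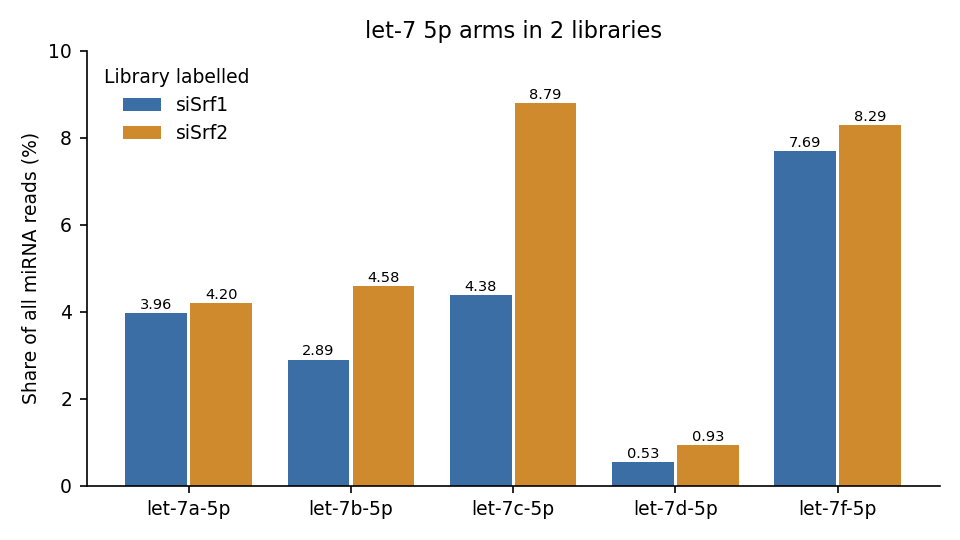
Share of all miRNA reads (%, y axis) for each let-7 5p form (x axis) in the libraries labelled siSrf1 (blue) and siSrf2 (orange), 1 library each and so without error bars. let-7c has the widest gap, 4.38% against 8.79%, while let-7a (3.96% and 4.2%) and let-7f (7.69% and 8.29%) stand nearly level on this scale.

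let-7c-5p was the only 5p form past the size rule, which asked for a difference of at least 2-fold and an interval on 1 side of 0. Its log2 ratio was -1.01 (interval -1.01 to -1), a 2.01-fold higher level in the library labelled siSrf2, at the edge of the rule. It was -0.52 with TMM factors and so no longer past it, though of the same direction. The ratio of let-7d-5p was -0.81 (-0.83 to -0.79) and that of let-7b-5p -0.66 (-0.67 to -0.65), again higher in the library labelled siSrf2 with every scaling tried (-0.33 and -0.18 with TMM factors). let-7a-5p at -0.08 (-0.09 to -0.07) and let-7f-5p at -0.11 (-0.12 to -0.10) were nearly level, and their sign turned with TMM factors, to 0.40 and 0.37. Of the markers of smooth muscle and fibroblast, miR-145a-5p moved the same way as let-7c-5p and further, with a log2 ratio of -2.20, while miR-143-3p was at -0.35. Of the heart muscle markers, miR-133a-3p was at -1.05, miR-208b-3p at -0.26, miR-208a-3p at -0.18, miR-499-5p at 0.01 and miR-1a-3p at 0.28. Their part in the let-7 differences was not tested.

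Of the 12 member arms, 7 had the 50 reads over both libraries needed for a ratio, and 2 of these, let-7c-5p and let-7b-3p, were past the size rule, both higher in the library labelled siSrf2. Over all 242 arms measured, 25.6% were past the rule in that direction and 0% in the other, so a count of 2 of 7 is near the background. The median log2 ratio of the 7 was -0.66, beside -0.42 for all arms, of which 193 lay below 0. TMM factors moved that overall median by 0.48, to 0.06, median-of-ratios factors by 0.42, a total without miR-1a-3p by 0.37 and the total of all inserts of 15 nt or longer by 0.11. With TMM factors 13.6% of arms were past the rule as higher in the library labelled siSrf2 and 1.24% as lower, and let-7b-3p was the 1 member among them. The shares were 14.9% and 1.24% with median-of-ratios factors, 21.9% and 0.413% with all inserts of 15 nt or longer, and 16.1% and 0.826% without miR-1a-3p.

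**Figure D2:**
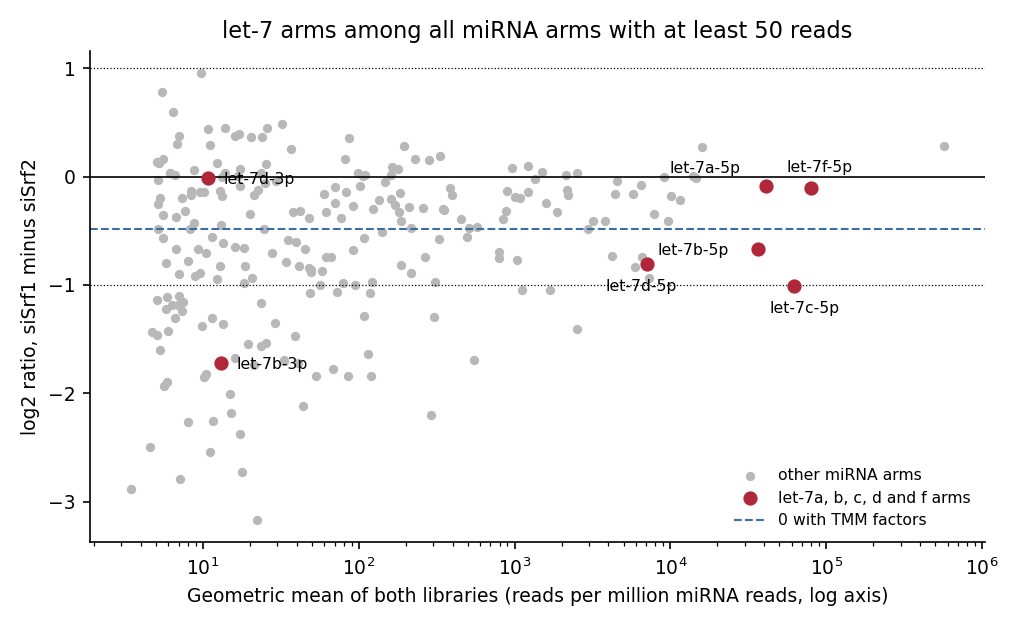
log2 ratio (siSrf1 minus siSrf2, y axis) against the mean level of each of the 242 miRNA arms with at least 50 reads (reads scaled to the miRNA total, log axis), with the 7 measured let-7 arms in red, dotted lines at 2-fold and a dashed line where 0 lies with TMM factors. let-7b, let-7c and let-7d 5p arms lie below the dashed line, and let-7a and let-7f 5p arms lie below 0 but above the dashed line.

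The make-up of the 5 forms among themselves does not depend on the scaling. let-7c-5p was 22.5% (22.4 to 22.6) of the member 5p reads in the library labelled siSrf1, and its share in the library labelled siSrf2 was 32.8% (32.7 to 32.9). let-7f-5p was 39.5% (39.4 to 39.6) and 30.9% (30.9 to 31.0). let-7a-5p was 20.4% and 15.7%, let-7b-5p 14.9% and 17.1%, and let-7d-5p 2.74% and 3.48%. The forms therefore fell into a pair with the larger share in the library labelled siSrf1 (let-7a and let-7f, log2 ratio of shares 0.38 and 0.35) and a trio with the larger share in the library labelled siSrf2 (let-7b, let-7c and let-7d, -0.20, -0.54 and -0.34). None of the 5 shares differed 2-fold. Shares have a fixed sum, so a larger share of some forms entails a smaller share of others. The pair also has the fewest G and C bases, 31.8% in let-7f-5p and 36.4% in let-7a-5p. The trio has 40.9% in let-7c-5p and let-7d-5p and 45.5% in let-7b-5p. Outside the 5, miR-98-5p has 31.8% and a log2 ratio of -0.82. A part of base content in the split was not tested.

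Taken in pairs, let-7f and let-7a kept nearly the same proportion. There were 1.94 reads of let-7f-5p for each of let-7a-5p in the library labelled siSrf1 and 1.98 in the library labelled siSrf2, a log2 difference of 0.03. By contrast, reads of let-7c-5p for each of let-7a-5p went from 1.11 to 2.10, the widest difference among the 10 pairs (1.90-fold). let-7d, which shares a cluster on chromosome 13 with let-7a-1 and let-7f-1, did not keep that proportion: there were 7.42 and 4.49 reads of let-7a-5p for each of let-7d-5p. let-7b, which lies 621 bp from let-7c-2, had 0.661 and 0.521 reads for each of let-7c-5p. However, let-7a-5p, let-7f-5p and let-7c-5p each also come from a locus on another chromosome. These proportions therefore do not show how the members of a single cluster stood to each other.

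The log2 ratios of the other miRNAs with the same seed lay between those of let-7c-5p and let-7f-5p. let-7e-5p (27832 and 46231 reads) was at -0.93, miR-98-5p (740 and 1134) at -0.82, let-7i-5p (44148 and 51165) at -0.41 and let-7g-5p (56054 and 56537) at -0.21, so 0 of these 4 were past the size rule. Together, all 9 forms with this seed made up 21.9% and 30.2% of miRNA reads. Of the miRNAs encoded beside members, miR-99a-5p, next to let-7c-1, was at -0.24 (7653 and 7866 reads), where let-7c-5p had -1.01. miR-125b-5p, made from a hairpin beside let-7c-1 and another beside let-7a-2, had 8808 and 9580 reads (-0.32), and miR-100-5p, from the neighbourhood of let-7a-2, had 1416 and 1830 (-0.57). miR-98, next to let-7f-2 in Huwe1, was thus at -0.82 where let-7f-5p was at -0.11. Outside the members, 86 arms had at least 1000 reads over both libraries. Among these, the ratios nearest that of the summed let-7 5p forms were those of miR-222-3p, miR-30e-5p and miR-340-5p, each at -0.47.

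A 5p form with a pair of loci cannot be assigned to one of them from the mature sequence. Inserts that reach into flanking hairpin bases can, and those that begin before the mature start are the clearer kind, because an untemplated base is not added there. For let-7c-5p, 337 such inserts in the library labelled siSrf1 and 553 in the library labelled siSrf2 matched only Mirlet7c-1, against 6 and 6 for Mirlet7c-2, so 98.3% and 98.9% were from let-7c-1. For let-7f-5p they numbered 4 and 6 from Mirlet7f-1 against 102 and 115 from Mirlet7f-2. For let-7a-5p there were 6 and 5 from Mirlet7a-1 against 33 and 53 from Mirlet7a-2.

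Those counts describe reads with a shifted start, a small part of each form. Inserts told apart by their 3′ end gave another split. For let-7c-5p they numbered 176 and 416 for Mirlet7c-1 and 203 and 485 for Mirlet7c-2, that is 46.4% and 46.2% from let-7c-1. For let-7f-5p there were 743 and 891 for Mirlet7f-1 and 13481 and 13827 for Mirlet7f-2, and for let-7a-5p 128 and 125 for Mirlet7a-1 and 54 and 63 for Mirlet7a-2. At this end an added base that happens to equal the hairpin of one locus counts for it: after base 22 let-7f-2 continues with U and let-7f-1 with G, so an added U would count for let-7f-2. The kinds of insert disagree for let-7a and let-7c, so neither gives the locus shares of these forms.

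The 3p arms were rare. let-7b-3p had 38 reads in the library labelled siSrf1 (exact Poisson interval 26.9 to 52.2) and 110 in the library labelled siSrf2 (90.4 to 133). Its log2 ratio was -1.72 (-2.31 to -1.19), 3.30-fold higher in the library labelled siSrf2. It passed the size rule with each of the 5 scalings (-1.24 with TMM factors). let-7d-3p had 57 (43.2 to 73.9) and 50 (37.1 to 65.9) reads and a log2 ratio near 0, at -0.01 (-0.59 to 0.57), which was 0.47 with TMM factors.

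The other 5 sequences stayed under 50 reads. The one shared by let-7a-1 and let-7c-2 had 17 and 18 reads, that of let-7f-1 had 5 and 2, that of let-7c-1 had 2 and 2, and that of let-7f-2 had 0 and 3. let-7a-2-3p was read 0 times in both, which allows up to 3.69 reads in each. A difference in these was not detectable at this depth.

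Measured against its own 5p arm, let-7b-3p was 0.0249% of the hairpin's arm reads in the library labelled siSrf1 (0.0176 to 0.0342) and 0.0523% in the library labelled siSrf2 (0.0430 to 0.0631), 2.08-fold apart. With exact matches only, which leave out its many reads with added bases, the log2 difference was -0.57 in place of -1.06 and no longer 2-fold. For let-7d the 3p share was 0.202% (0.153 to 0.262) and 0.117% (0.0866 to 0.154), the other way and with touching intervals. Of 47 hairpins with enough reads on both arms, 21.3% had arm ratios that were 2-fold apart with separate intervals. All member 3p arms together were 0.0116% and 0.0151% of the member reads. The median minor arm of the 47 hairpins was 11.3% and 10.5%, but those had been kept for having reads on both arms, so the values are not a like comparison. Among them let-7e (0.0969% and 0.0951%) and let-7i (0.0634% and 0.0430%) also had a rare minor arm.

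At the 5′ end all 5 forms were uniform: 98.5% to 99.8% of reads began at the mature start in both libraries, so nearly all carried the seed printed above. None of the 5 differed by 2 points there, where 3.7% of the 81 arms with at least 500 reads in each library did. The 3′ end varied. Reads of 22 nt were 55.4% of let-7b-5p in both libraries, against 73.6% and 73.5% for let-7a-5p, 80.4% and 78.3% for let-7c-5p, 79.7% and 81.1% for let-7d-5p, and 79.5% and 79.3% for let-7f-5p. let-7c-5p was the 1 member whose share of 22 nt differed by 2 points with separate intervals, beside 17.3% of those 81 arms. Its share of 23 nt, 10.2% and 12.9%, was also apart by that rule, for which a count over all arms was not made.

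Among the 5 forms, let-7b-5p had the most reads over 22 nt. Those of 23 nt were 27.1% and 27.7% of it, and those of 24 or 25 nt a further 5.67% and 7.27%. Outside the 5, let-7i-5p had 26.9% and 27.7% of 23 nt and let-7e-5p 22.2% and 24.8%. Its most frequent sequences are shown to make the ends visible, with untemplated bases in capitals:
let-7b-5p, 22 nt: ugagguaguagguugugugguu
let-7b-5p, next hairpin base included: ugagguaguagguugugugguuu
let-7b-5p, adenine added: ugagguaguagguugugugguuA

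The first was read 81029 and 113039 times, the next 19842 and 29070 times and the last 15995 and 23086 times. An untemplated adenine, a base that noncanonical poly(A) polymerases are known to add to miRNAs, ended 18% and 17.8% of let-7b-5p reads. It ended 8.45% and 8.65% of let-7a-5p, 6.17% and 8.05% of let-7c-5p, 6.34% and 6.51% of let-7d-5p and 6.06% and 6.33% of let-7f-5p, where the median of the 81 arms was 7.94% and 7.89%. let-7i-5p, of the same seed family, had 16.2% and 16.3%. let-7c-5p showed the widest difference between libraries, 1.88 points, just under the 2 points that 2.47% of the arms passed.

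**Figure D3:**
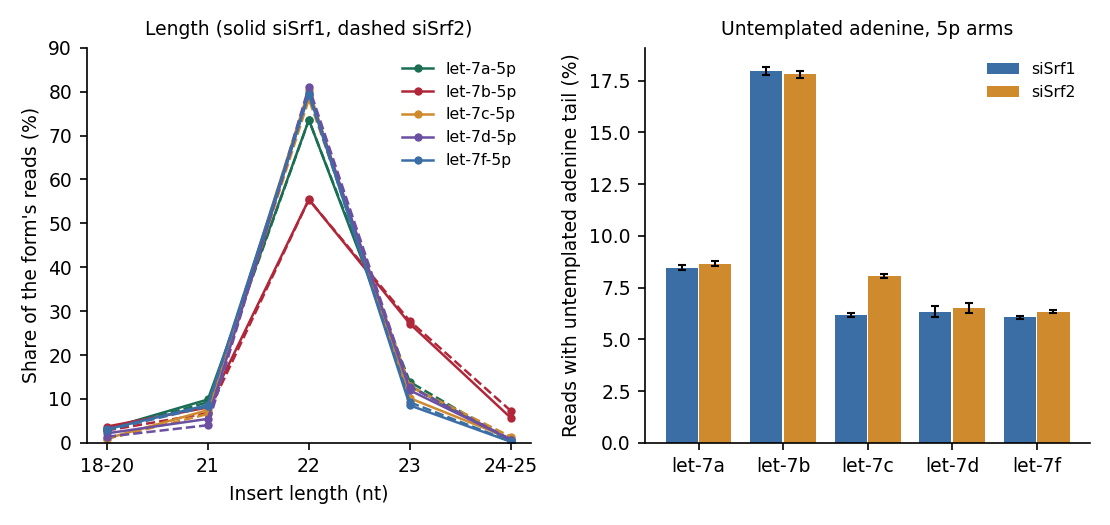
Left, share of each 5p form's reads (%) by insert length (nt), solid for the library labelled siSrf1 and dashed for siSrf2; right, share with an untemplated adenine (%) with exact 95% counting intervals. Of the 5 forms shown, let-7b stands apart in both panels, with 55.4% of its reads at 22 nt and 18% and 17.8% with an added adenine.

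Untemplated uridine was found on less than 1% of each 5p form, while the median over the 81 arms was 4.21% and 4.82%. No member differed between libraries by 2 points, and 4.94% of the arms did. The hairpins set a limit on this measurement. After base 22, the loci of let-7a, let-7b, let-7c, let-7d and let-7f-2 continue with U, so that an added U looks templated, whereas let-7e, let-7i, miR-98 and let-7f-1 continue with G. Where an added U can be seen, it followed base 22 in 12.3% and 11.9% of let-7e-5p reads that are 22 nt long or have 1 more base, and in 13.4% and 14% of those of let-7i-5p. In miR-98-5p it did so in only 2.57% and 2.53% (15 and 24 reads), so its frequency varied within the family. The share with U there, templated or not, was 16.9% and 17.5% for let-7b-5p, 6.81% and 7.29% for let-7a-5p, 5.66% and 6.54% for let-7c-5p, 6.91% and 6.75% for let-7d-5p and 3.78% and 4.10% for let-7f-5p. The 2 sources of that U cannot be told apart in these 5 forms.

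On some 3p arms added uridine was common. Precursors of let-7 are known in 2 groups: those of group II, such as let-7b and let-7f-1, leave Drosha with a short 3′ overhang and receive a single uridine from terminal uridylyl transferases before Dicer cuts, while those of group I (let-7a-2, let-7c-1 and let-7e) do not need it. A uridine on the precursor becomes the last base of the 3p arm. The most frequent 3p inserts are given, with untemplated bases in capitals:
let-7b-3p: cuauacaaccuacugccuuccU
let-7f-1-3p: cuauacaaucuauugccuuccU
let-7f-2-3p: cuauacagucuacugucuuucU
let-7d-3p: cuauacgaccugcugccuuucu

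The first was read 21 and 54 times. Over both libraries 82 of 148 let-7b-3p reads, 55.4% (Clopper-Pearson 47.0 to 63.6), ended in untemplated U, 22 of 38 in the library labelled siSrf1 and 60 of 110 in the library labelled siSrf2. So did 7 of 7 reads of let-7f-1-3p, 2 of 3 of let-7f-2-3p and 10 of 35 (28.6%) of the sequence shared by let-7a-1 and let-7c-2. In the group I arms it was on 0 of 4 reads of let-7c-1-3p and on 11 of 71 (15.5%, 8 to 26) of let-7e-3p. let-7d-3p, of group II, had 0 of 107, but the hairpin itself has U at that place, so an added one would not be seen. Elsewhere in group II the untemplated U was on 18 of 50 of let-7i-3p (36%), 3 of 5 of let-7g-3p and 0 of 9 of miR-98-3p. The hairpin bases at that place in let-7e, let-7g, let-7i and miR-98 are not given here, so hidden uridines there cannot be judged. Over the 36 3p arms with at least 500 reads in each library the median was 7.71% and 6.91%, and 1 arm exceeded 50% in both.

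**Figure D4:**
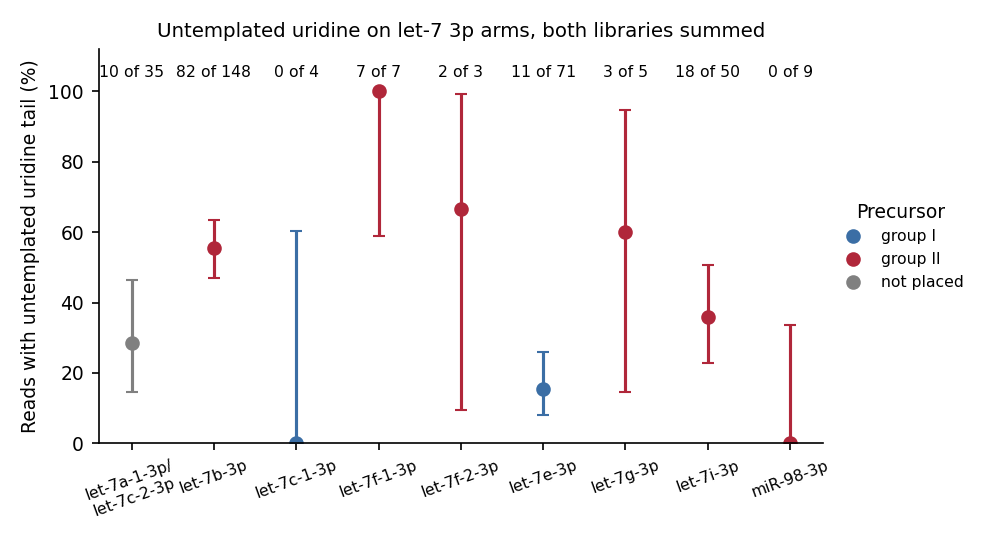
Share of reads that end in untemplated uridine (%, y axis) for the 3p arms of the let-7 seed family (x axis), both libraries summed, with exact 95% counting intervals and the read numbers above; colour gives the known precursor group, and let-7d-3p is left out because its hairpin has U at that place. let-7b-3p is at 55.4%, above the interval of let-7e-3p (8 to 26).

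Forms that differ by 1 base can take reads from each other through sequencing errors. At position 12, where let-7a-5p and let-7f-5p differ, the bases neither form carries were read 464 times as C and 1320 times as U in the library labelled siSrf1, and 306 and 1275 times in the library labelled siSrf2. Per wrong base that is 0.191% and 0.181% of the reads of both forms. At position 19, where let-7a-5p and let-7c-5p differ, the rate was higher, 0.689% and 0.743%, mostly from U (4029 and 6276 reads against 532 and 396 of C). At position 17 (let-7c-5p and let-7b-5p) it was 0.190% and 0.139%. With each form's reads corrected at these rates, let-7a-5p went from 208726 to 206363 and from 192368 to 188683, and let-7c-5p from 230664 to 228936 and from 403148 to 401426, which is small beside the differences between the forms. The correction takes a misread between the forms' own bases, A and G, to be as frequent as the mean of C and U. That frequency could not be measured in these forms, because in each pair a misread of either gives the other. In let-7d-5p such changes make none of the other forms. Per unchanged let-7d-5p read, A19G was at 0.223% (siSrf1) and 0.295% (siSrf2). G12A was at 0.268% and 0.210%, and A17G at 0.132% and 0.140%. Against the rates used, this was lower at position 19 and higher at position 12. At position 17 it was lower in siSrf1 and level in siSrf2. The reverse changes cannot be seen in let-7d-5p. A further 1822 and 1695 reads fitted let-7a-5p and let-7c-5p equally and were shared between them.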

How the data were processed

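The authors deposited a count of reads for each distinct 36 nt sequence of a library, without normalization, per the labels and the file headers. Libraries came from an Illumina small RNA kit and the Genome Analyzer, per the labels' protocols. For an aligner, a read filter or a build: not given in the sources used here. The 3′ adapter was read from the data, and each read was cut at its first 8 nt, or where it ended in 4 nt or more of it. Inserts of 15 nt or longer without N were kept, and those of 18 to 25 nt were matched to RefSeq hairpins (table of GRCm38.p6) and to named GENCODE vM1 hairpins of NCBIM37, exactly or with 1 to 2 untemplated 3′ bases after at least 18 templated ones. An arm took inserts that began within 3 nt of its mature start, and inserts that fitted several forms were shared equally. All 8 hairpins were found in RefSeq. Ratios used totals of miRNA reads and a pseudocount of 0.5 reads. Intervals are exact (binomial, Clopper-Pearson or Poisson, 95%). They cover counting error only, since PCR copies carry no molecular identifier. The ends of reads were compared over arms with at least 500 reads in each library, with 2 points as the size of a difference.

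Every member arm is accounted for, and arms with at least 50 reads over both libraries have a ratio. Other miRNAs named are those with the let-7 seed, those encoded beside members, cell type markers, miR-1a-3p, and the 3 with a ratio nearest that of the summed 5p forms. Other features were picked out after their values were seen. Members, lists and rules were chosen with earlier results of these data known. Alternatives were TMM (edgeR 4.0.16) and median-of-ratios factors (DESeq2 1.42.0, R 4.3.3), other totals, filters, insert lengths and adapter matches, and, added after seeing the data, inserts of 22 nt with 1 changed base. The steps were tested on simulated data (Python 3.11.15, scipy 1.17.1).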

Additional observations from a re-analysis of the deposited data

How the results depend on the processing

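The sign of the summed 5p ratio turned with TMM factors (0.020). That of let-7a-5p turned with TMM factors (0.40), median-of-ratios factors (0.34), the total of inserts of 15 nt or longer (0.025) and the total without miR-1a-3p (0.29). That of let-7f-5p turned with TMM factors (0.37), median-of-ratios factors (0.32) and the total without miR-1a-3p (0.27). That of let-7d-3p, whose interval spans 0, turned with the same 4 scalings (0.47, 0.41, 0.094 and 0.36). let-7c-5p fell short of 2-fold with those 4 (-0.52, -0.58, -0.90 and -0.63), which left 1 member arm past the rule in place of 2. The count was likewise 1 with exact matches only and with a minimum of 500 reads, since let-7b-3p then has under 50 and under 500 reads and is not counted (its log2 ratio with exact matches only was -1.25). The 3p to 5p log2 difference of let-7b was -0.57 with exact matches only, against -1.06. Over all arms, 62 were past the rule, but TMM factors gave 36, median-of-ratios factors 39, a total without miR-1a-3p 41, a minimum of 10 reads 93 and a minimum of 500 reads 19. let-7b-5p and let-7d-5p stayed below 0 in all 11 alternatives (-0.68 to -0.18 and -0.83 to -0.33), and the log2 ratios of shares among the 5 forms kept their sign in all 7 run for them (let-7c-5p -0.55 to -0.53). The causes were not tested, other than that all scalings move every arm by the same amount. No paired analysis was possible because 1 library stands for each group.

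With 1 library per group, the spread between cultures is unknown. The titles and the siRNA entries of the samples disagree, and both libraries hold reads that match Srf, 24 in the library labelled siSrf1 and 261 in the library labelled siSrf2. Reads of the rarer 3p arms are too few for a comparison.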
